A study of Mus musculus with 2 samples.

Results

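The genes described here are 48 protein-coding genes that charge tRNAs with amino acids or belong to the amino acid response of the transcription factor ATF4. They were chosen by name, as the rows of the deposited tables that carry these 48 symbols out of 34745 genes, and all 48 were found once each. They comprise 20 cytosolic aminoacyl-tRNA synthetases, 15 mitochondrial synthetases (symbols ending in 2) and 13 genes of the ATF4 response. RNA-seq had been performed on bone marrow (BM) LSKs, the lineage-negative Sca1-positive c-Kit-positive stem and progenitor cells, of Scl/tTA-BA mice on a C57BL/6 background. In these mice, regulatory sequence of Scl drives the transactivator tTA, which switches on BCR/ABL (BA) when doxycycline is absent. The week-0 library came from mice still under doxycycline and the week-3 library from mice 3 weeks after its withdrawal, so both carry the same transgenes. The age of the mice is not given in the sources used here. Each library held the LSKs of 3 mice mixed together, so there is 1 library per time point, no spread between mice is known, and no test between time points was possible. In Scl/tTA-GFP reporter mice kept in parallel, only part of the LSKs carried the label by then, and the sorted LSKs were not selected for BA.

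The tables held 6356164 reads on genes for week-0, and for week-3 there were 3886695. The LSK markers Kit and Ly6a (Sca1) had FPKM values of 16.9 and 19.8 at week-0 and of 11.5 and 14.8 at week-3. Among the other LSK markers, Slamf1 had the highest ratio but rested on 10 and 15 reads. The 8 lineage markers examined summed to an FPKM of 4.09 before and 2.81 after withdrawal, with Cd3e and Cd8a at 0 reads in the week-3 library and Itgam at 30 and 30 reads. The RNA of markers of other cell populations and states differed between the libraries. The 9 mast cell and basophil markers summed to FPKM values of 120 and 3214. Of these, Tpsb2 and Mcpt4 went from 0 reads to 5442 and 93 reads, and Mcpt8 had the lowest ratio, with 346 and 517 reads. The 9 plasma cell markers summed to FPKM values of 332 and 56.8, of which Xbp1 gave 50.8 and 47.8. Irf4 had 42 reads and 0 reads, where a count of 0 allows up to 3 reads. The 16 immediate-early genes examined, which respond within minutes to many stimuli, took 4.56% of the week-0 library and 1.28% of the week-3 library. Fewer cells of a type and less RNA per cell cannot be told apart in such mixed libraries.

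Aminoacyl-tRNA synthetases join each amino acid to its tRNA, and the cytosol and the mitochondria use largely separate enzymes, nearly all encoded in the nucleus. When a tRNA lacks its amino acid, the kinase Gcn2 (Eif2ak4) phosphorylates the initiation factor eIF2, which slows general translation while favouring translation of Atf4. ATF4 then raises transcription of genes for amino acid synthesis and transport and of many cytosolic synthetases. Other kinases feed into the same step, among them Perk (Eif2ak3) for unfolded protein in the endoplasmic reticulum. Hematopoietic stem cells are known for a low rate of protein synthesis, which rises as they divide and differentiate.

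Levels are given as reads and as FPKM, that is, fragments per kilobase of the exons of a gene scaled to the size of the library. Values named in pairs are those of week-0 and week-3, in that order. A change is given as a log2 ratio, the FPKM after withdrawal (week-3) divided by that before it (week-0), followed by a 95% interval. The interval reflects the number of reads and nothing else, and amplified reads can be copies of the same molecule. Changes are read against the 12192 genes with at least 20 reads over both libraries, whose median log2 ratio was 0.07. All 48 genes passed this filter. Scaling by TMM lowered every log2 ratio by 0.11 and brought the median of all genes to -0.04.

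The class medians differed in direction. Of the 12192 genes past the filter, 6505 had a higher FPKM at week-3 and 5687 a lower one. Of the 20 cytosolic synthetases, 15 had a higher FPKM at week-3, and their median log2 ratio was 0.47. The 15 mitochondrial synthetases had a median of 0.41, with 13 of them higher at week-3. The 13 ATF4 genes had a median of -0.61, and 8 of them were lower at week-3. Under TMM these medians were 0.35, 0.30 and -0.72, so each stayed on its side of the median of all genes.

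An FPKM ratio of at least 1.5 was found for 9 of the 20 cytosolic synthetases, 4 of the 15 mitochondrial ones and 3 of the 13 ATF4 genes, where 23.7% of all genes passed this limit. A ratio of at most 0.67 was found for 1, 1 and 7 genes of these classes, against 24.8% of all genes. With the wider limits, 3, 1 and 0 genes had a ratio of at least 2 (10.6% of all genes), and 1, 0 and 6 had a ratio of at most 0.5 (15.6% of all genes). The share of mitochondrial synthetases past 1.5 was therefore near the background, whereas low ratios were more frequent among the ATF4 genes than among all genes. The counting interval lay wholly above 0 for 15 cytosolic, 8 mitochondrial and 3 ATF4 genes (34.0% of all genes), and wholly below 0 for 3, 1 and 8 genes (28.5% of all genes). This last count depends on depth, because genes with many reads have narrow intervals.

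**Figure D1:**
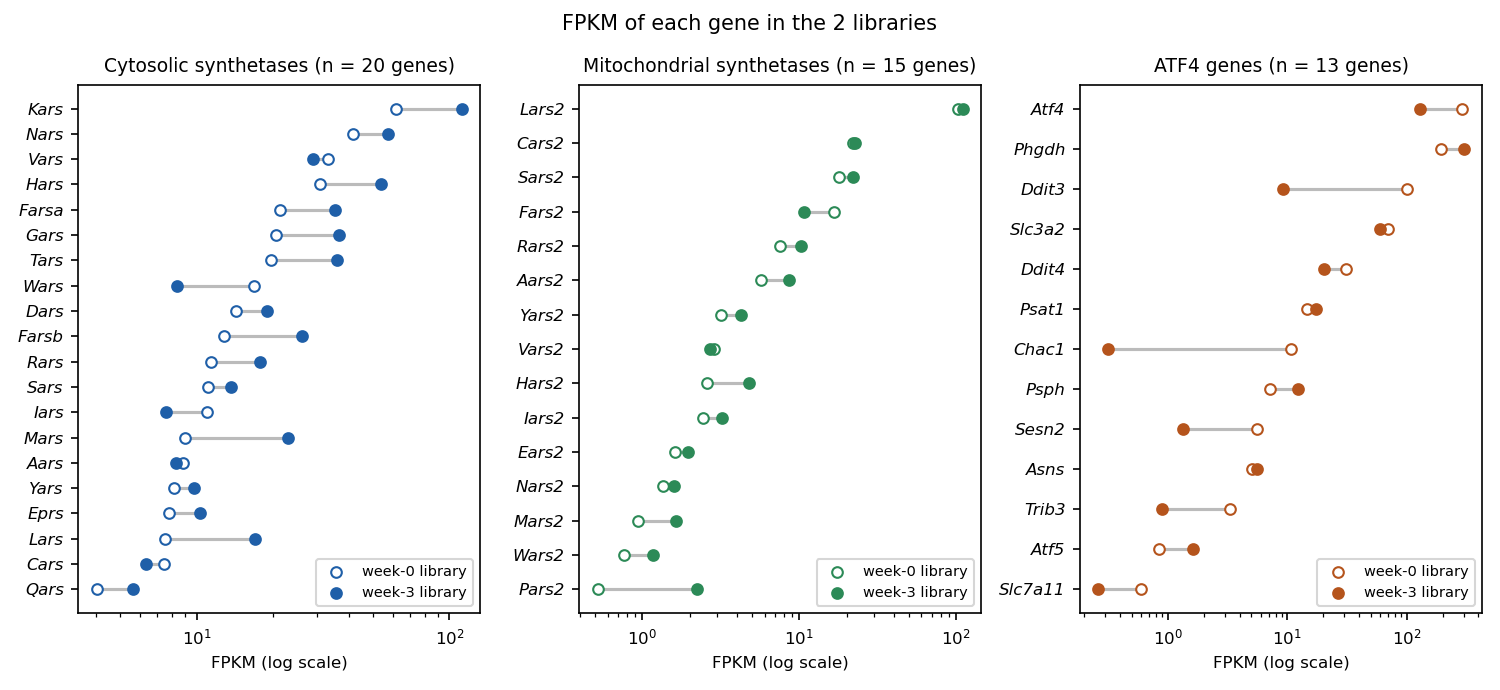
FPKM of the 48 genes on log axes, with a panel for each class. Open circles stand for the week-0 library, filled circles for the week-3 library, and the line joins the 2 values of a gene. Most synthetases have the filled circle to the right, for example Mars from 9.03 to 23.1, whereas Chac1 and Ddit3 have it far to the left.

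Atf4 itself encodes the bZIP factor at the centre of the response. It had 3187 and 864 reads, with FPKM values of 291 and 129, a log2 ratio of -1.17 (interval -1.28 to -1.06). Among all genes, 87.0% had a higher ratio than Atf4. The gene lies at chr15:80255184-80257540 of GRCm38, on the plus strand. Since Atf4 is regulated largely by translation of its mRNA, the RNA level is not a measure of the protein, which was not analysed here.

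Of the genes linked to the stress arm, Ddit3 encodes CHOP, a partner of ATF4 in sustained stress, and lies at chr10:127290774-127296288 on the plus strand. Ddit3 had 1477 reads at week-0 against 83 at week-3, and its FPKM values were 101 and 9.28. Its log2 ratio was -3.44 (interval -3.78 to -3.12), and 97.6% of all genes had a higher ratio. Chac1, which encodes a glutathione-degrading enzyme, had 112 reads at week-0 against 2 reads at week-3, with FPKM values of 10.8 and 0.314. Its log2 ratio of -5.10 was the lowest of the 48 genes, with a wide interval from -8.16 to -3.21, and with a pseudocount of 1 the value was -3.16. Trib3, a pseudokinase that dampens ATF4 and CHOP, had 67 and 11 reads, FPKM values of 3.33 and 0.893, and a log2 ratio of -1.90 (interval -2.97 to -0.97). The intervals of Ddit3 and Chac1 thus lay wholly below that of Atf4, whereas that of Trib3 overlapped it. Other annotated genes, among them a further Ddit3 entry and Mars, share 10.9% of the exon bases of Ddit3.

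Both genes that restrain the growth kinase mTORC1 were also lower. Sesn2, a leucine-binding sestrin, had 123 and 18 reads, FPKM values of 5.57 and 1.33, and a log2 ratio of -2.06 (interval -2.86 to -1.34). Ddit4 (Redd1) had 334 and 134 reads and FPKM values of 31.2 and 20.5, a log2 ratio of -0.61 (interval -0.91 to -0.31). The cystine transporter was low in both libraries. Slc7a11, its light chain, had 59 and 16 reads, FPKM values of 0.591 and 0.262, and a log2 ratio of -1.17 (interval -2.07 to -0.36), or of -0.33 with a pseudocount of 1. Slc3a2, the heavy chain shared by several amino acid transporters, was abundant, with FPKM values of 70.5 and 59.4 and a log2 ratio of -0.25 (interval -0.34 to -0.16).

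The amino acid synthesis genes behaved otherwise, and all 4 had a log2 ratio above 0. Phgdh, which catalyses the first step of serine synthesis, had 3527 and 3357 reads, with FPKM values of 193 and 301, a log2 ratio of 0.64 (interval 0.57 to 0.71). Psat1, the next enzyme of that pathway, had FPKM values of 14.6 and 17.5 and a log2 ratio of 0.26 (interval 0.09 to 0.44). Psph, which completes it, had 293 and 308 reads, FPKM values of 7.17 and 12.3, and a log2 ratio of 0.78 (interval 0.55 to 1.02). The intervals of these 3 serine synthesis genes lay above 0. For Phgdh, 63.1% of the 50-base stretches of its longest coding transcript also occur in transcripts of other genes, and for Psph 23.9% occur in Cct6a, so some of their reads may belong to those genes. Under TMM, the ratio of Phgdh was 0.53 and under the limit of 1.5 times.

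Asns, which makes asparagine and is a textbook ATF4 target, had 122 and 82 reads. Its FPKM was 5.12 and 5.62, a log2 ratio of 0.14 with an interval from -0.29 to 0.55, so no change of Asns was detectable at this depth. Atf5, a relative of ATF4, rested on 17 and 20 reads, with FPKM values of 0.836 and 1.61, a log2 ratio of 0.94 and an interval from -0.06 to 1.97. The intervals of both genes lay wholly above those of Ddit3 and Chac1.

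**Figure D2:**
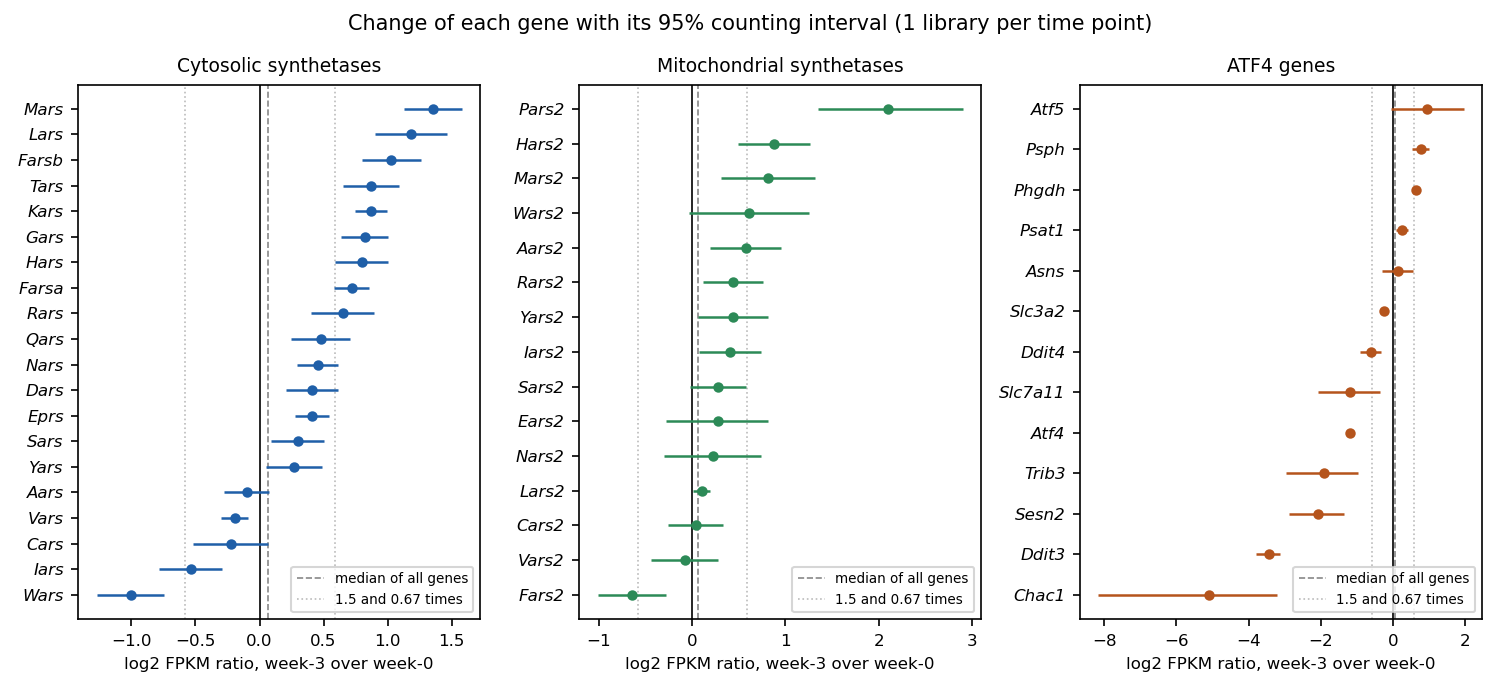
Log2 FPKM ratio of week-3 over week-0 for each gene (points) with its 95% counting interval (bars), by class, with separate horizontal scales. The solid line marks 0, the dashed line the median of all genes at 0.07 and the dotted lines 1.5 and 0.67 times. Cytosolic synthetases spread from Wars at -1.004 to Mars at 1.35, and the ATF4 genes from Chac1 at -5.10 to Atf5 at 0.94.

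Among the cytosolic synthetases, the largest ratio was that of Mars, the methionyl enzyme, on the minus strand at chr10:127296221-127311786. Mars had 269 and 420 reads, FPKM values of 9.03 and 23.1, and a log2 ratio of 1.35 (interval 1.13 to 1.58). The ends of Mars and Ddit3 overlap by 68 exonic bases on opposite strands, 1.99% of the exon length of Mars, and these neighbours moved in opposite directions. Lars, the leucyl enzyme, had 184 and 255 reads, FPKM values of 7.51 and 17.0, and a log2 ratio of 1.18 (interval 0.90 to 1.46). Farsb, the beta subunit of the phenylalanyl enzyme, had 290 and 362 reads, FPKM values of 12.8 and 26.2, and a log2 ratio of 1.03 (interval 0.80 to 1.26). These were the only cytosolic synthetases above 2 times, and under TMM Farsb, at 0.92, was not. Of the 50-base stretches of Farsb, 10.1% also occur in Sgpp2, which had 2 and 2 reads. Its partner subunit Farsa, with which it forms a tetramer, had 906 and 911 reads, FPKM values of 21.5 and 35.3, and a log2 ratio of 0.72 (interval 0.58 to 0.85).

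Beside Farsa, 5 cytosolic synthetases lay between 1.5 and 2 times. Kars, the lysyl enzyme, which also serves the mitochondria, was the most abundant by FPKM in both libraries, at 61.2 and 112, with a log2 ratio of 0.87 (interval 0.75 to 0.99). Tars (threonyl) went from an FPKM of 19.6 to 35.9, a log2 ratio of 0.87. Gars (glycyl), which likewise serves both compartments, went from 20.7 to 36.5 (0.82), and Hars (histidyl) from 30.8 to 53.5 (0.80). Rars (arginyl) went from 11.4 to 17.8 (0.65, and 0.54 under TMM, where it was under the limit). The intervals of these 5 genes did not reach 0, and the lowest bound was 0.40, for Rars.

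Below that limit, a middle group of 6 genes had ratios between 0.27 and 0.48, with intervals above 0. It held Qars (glutaminyl) at 0.48, Nars (asparaginyl) at 0.45, Dars (aspartyl) and the bifunctional glutamyl-prolyl enzyme Eprs both at 0.41, Sars (seryl) at 0.30 and Yars (tyrosyl) at 0.27. Nars was the second most abundant synthetase of the cytosol by FPKM, with 41.7 at week-0 and 57.1 at week-3. Eprs had the most reads of the group, 1044 and 848.

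The remaining 5 cytosolic synthetases had a lower FPKM at week-3. Wars, the tryptophanyl enzyme, which is also known as an interferon-induced gene, had 515 and 157 reads, with FPKM values of 16.8 and 8.37. Its log2 ratio was -1.004 (interval -1.27 to -0.74), with 84.4% of all genes higher. Iars, the isoleucyl enzyme, had 469 and 198 reads, FPKM values of 10.97 and 7.57, and a log2 ratio of -0.53 (interval -0.78 to -0.29), which passed the limit of 0.67 only under TMM and median-of-ratios scaling. Vars (valyl) had FPKM values of 33.1 and 28.9 and a log2 ratio of -0.19 (interval -0.30 to -0.09). Cars (cysteinyl) had 287 and 150 reads, FPKM values of 7.41 and 6.33, and a log2 ratio of -0.23 (interval -0.52 to 0.06). Aars (alanyl) had FPKM values of 8.87 and 8.28 and a log2 ratio of -0.10 (interval -0.28 to 0.08). The intervals of Cars and Aars held 0. Exons of Aars share 15.1% of their bases with other genes, chiefly Exosc6 on the same strand, so the reads of Aars are less certain.

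In the cytosol, 8 of these enzymes, Dars, Eprs, Iars, Kars, Lars, Mars, Qars and Rars, are held in a multi-synthetase complex. Their median log2 ratio was 0.56, against 0.38 for the 12 synthetases outside it. A higher FPKM at week-3 was found for 7 of 8 and 8 of 12, against 6505 of all 12192 genes. The complex has 3 scaffold proteins, and all of them were higher. Aimp1 had 320 and 314 reads and FPKM values of 7.59 and 12.2 (log2 ratio 0.68, interval 0.45 to 0.91), and Aimp2 from an FPKM of 15.6 to 28.2 (0.85, interval 0.60 to 1.09). Eef1e1 (Aimp3) had 274 and 391 reads, FPKM values of 41.8 and 97.5, and a log2 ratio of 1.22 (interval 0.996 to 1.45). Iars was thus the only complex enzyme with a lower FPKM at week-3.

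A set of 12 cytosolic synthetases is often described as induced through ATF4, namely Aars, Cars, Eprs, Gars, Iars, Lars, Mars, Nars, Sars, Tars, Wars and Yars. These had a median log2 ratio of 0.35, with 4 of 12 at or above 1.5 times, where 23.7% of all genes were. The other 8, Dars, Farsa, Farsb, Hars, Kars, Qars, Rars and Vars, had a median of 0.68, with 5 of 8 at or above 1.5 times. Of the 5 genes with a lower FPKM at week-3, 4 were in the set of 12 and Vars was not. No test of this difference was made, since the list was chosen with earlier results of these libraries known.

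Among the mitochondrial synthetases, Pars2, the prolyl enzyme, had by far the largest ratio. It had 21 and 55 reads, FPKM values of 0.518 and 2.22, and a log2 ratio of 2.10. With so few reads its interval ran from 1.35 to 2.90, and with a pseudocount of 1 the value was 1.08. Hars2 (histidyl) had 108 and 121 reads, FPKM values of 2.59 and 4.75, and a log2 ratio of 0.87 (interval 0.49 to 1.26). Mars2 (methionyl) had 67 and 72 reads, FPKM values of 0.933 and 1.64, and a log2 ratio of 0.81 (interval 0.31 to 1.32). Wars2 (tryptophanyl) was also past 1.5 times, at 0.61, but its interval from -0.03 to 1.25 held 0 and under TMM it was not past the limit.

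Fars2, the phenylalanyl enzyme, was the only mitochondrial synthetase at most 0.67 times, with 224 and 88 reads, FPKM values of 16.6 and 10.7, and a log2 ratio of -0.64 (interval -1.01 to -0.28). Its exons overlap genes on the opposite strand over 10.7% of their length. Vars2 (valyl), with 178 and 103 reads and FPKM values of 2.84 and 2.69, had a log2 ratio of -0.08 (interval -0.44 to 0.28), and Cars2 (cysteinyl), with 258 and 162 reads and FPKM values of 22.0 and 22.6, had 0.04 (interval -0.25 to 0.33). No change of Vars2 or Cars2 was detectable at this depth, and under TMM Cars2 was below 0. Of the 50-base stretches of Cars2, 17.8% also occur in Naxd, which had 449 and 370 reads.

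The other mitochondrial synthetases lay between 0.11 and 0.57. Aars2 (alanyl) had a log2 ratio of 0.57, Rars2 (arginyl) and Yars2 (tyrosyl) of 0.44 and Iars2 (isoleucyl) of 0.41, all with intervals above 0. Of the exon bases of Iars2, 24.2% overlap other genes, chiefly Rab3gap2, which had 347 and 129 reads. Sars2 (seryl, 0.28), Ears2 (glutamyl, 0.27) and Nars2 (asparaginyl, 0.22) had intervals that held 0. Of these, Ears2 rested on 69 and 51 reads and Nars2 on 77 and 55. Lars2 (leucyl) had 2524 and 1660 reads, more than the other 14 mitochondrial synthetases together, and a log2 ratio of 0.11 (interval 0.01 to 0.20) that was -0.01 under TMM. The summed reads of the mitochondrial class therefore follow Lars2, and the class took 0.0692% and 0.0793% of all reads.

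Mitochondrial charging genes outside the 15 were also examined. Tars2 (threonyl) had 353 and 339 reads, FPKM values of 5.35 and 8.39, and a log2 ratio of 0.65 (interval 0.43 to 0.87). Mitochondria make glutaminyl-tRNA through an amidotransferase rather than a synthetase of their own. Its subunit genes were uneven, with Qrsl1 at 1.10 (interval 0.70 to 1.501), Gatb at 0.12 (interval -0.31 to 0.55) and Gatc at -0.42 (interval -0.78 to -0.07).

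The mitochondrial ribosomal protein genes are the closest relatives in function. Over the 76 of them past the filter the median log2 ratio was 0.59, and 39 were at or above 1.5 times, whereas 4 of 15 mitochondrial synthetases were. The share of all genes past this limit was 23.7%. For 82 cytosolic ribosomal protein genes the median was 0.01, with 9 at or above 1.5 times, against 9 of 20 cytosolic synthetases. The difference between these groups was not tested.

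Cytosolic and mitochondrial enzymes of the same amino acid could be compared in 16 pairs. The cytosolic gene had the larger ratio in 8 pairs and the mitochondrial gene in 8, and the medians of the classes differed by 0.06. In 3 pairs the cytosolic interval lay wholly above the mitochondrial one, for leucine (Lars 1.18, Lars2 0.11) and for both subunits of the phenylalanyl enzyme (Farsa 0.72, Farsb 1.03, Fars2 -0.64). It lay wholly below in 4 pairs. These were tryptophan (Wars -1.004, Wars2 0.61), isoleucine (Iars -0.53, Iars2 0.41), alanine (Aars -0.10, Aars2 0.57) and proline (Eprs 0.41, Pars2 2.10). For serine the values were nearly equal, at 0.30 for Sars and 0.28 for Sars2, and for histidine at 0.80 and 0.87. Hars and Hars2 lie head to head and share 195 exonic bases, so a few of their reads cannot be assigned without strand.

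**Figure D3:**
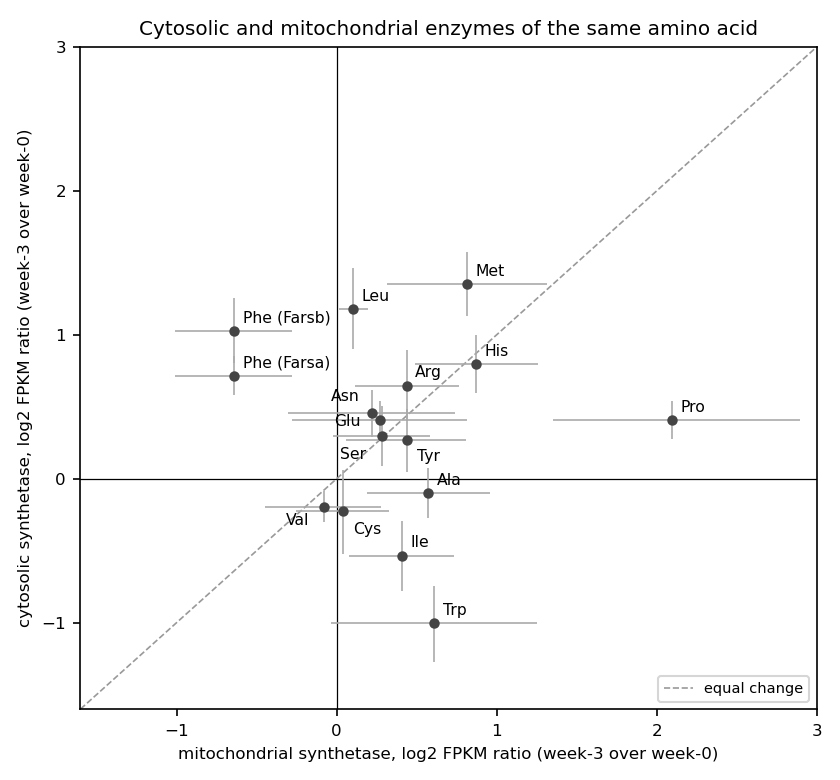
Log2 FPKM ratio (week-3 over week-0) of the cytosolic enzyme (vertical axis) against that of the mitochondrial enzyme (horizontal axis) for each amino acid, with 95% counting intervals. Points on the dashed line changed equally. Leucine and phenylalanine lie above the line, and tryptophan, isoleucine, alanine and proline lie below it.

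The order of levels within the classes depends on the length used. For 69.4% of 9266 genes, the length behind the deposited FPKM was within 2% of the sum of all distinct annotated exons, in which overlapping exons of different transcripts count more than once. This leaves the ratio between libraries untouched but lowers the FPKM of genes with many annotated transcripts. Per kilobase of merged exons of GENCODE M21, Vars had an RPKM of 57.3 at week-0 and Kars 36.3, while Kars led at week-3 with 66.4. The length behind the FPKM of Kars was 2648 bases, shorter than its merged length of 4464. The counted gene model of Kars was therefore a different one, and its RPKM is too low. Vars cannot be placed above Kars at week-0, where Kars had an FPKM of 61.2. Cars and Lars were the lowest at week-0 on that scale, at 6.86 and 5.39, whereas Qars was the lowest by FPKM. Their merged lengths, 6583 bases for Cars and 5368 for Lars, also exceeded the lengths behind their FPKM, 6096 and 3856. Their low rank on that scale is thus uncertain as well. Among mitochondrial synthetases, Lars2 had the highest value on both scales, with an RPKM of 35.8 at week-0. Sars2 had the next RPKM, 10.4, whereas Cars2, which shares sequence with Naxd, was next by FPKM. The merged lengths of Lars2, Cars2 and Sars2 were 11089, 7237 and 3313 bases. They exceeded the lengths behind their FPKM, 3881, 1846 and 1910, so the RPKM values of these genes are too low. Which gene came after Lars2 by RPKM is thus uncertain. The subunits Farsa and Farsb, present in equal number in the enzyme, had an RPKM ratio of 1.80 at week-0 and 1.45 at week-3.

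The core of the CEBP-ATF response element, the sequence to which ATF4 binds together with a CEBP partner, was searched as the letters TGATGNAA on either strand. The search covered promoter windows from RefSeq (GRCm38.p6), from 250 bases before to 50 bases after an annotated start. A window was found for 39 of the 48 genes. The letters were present for 5 of 13 cytosolic synthetases, 0 of 13 mitochondrial synthetases and 4 of 13 ATF4 genes, and for 4.51% of 27025 genes with a window (3.97% of all windows). Matches of 8 of these genes follow as read on the strand of the gene, because the same letters stand near the starts of genes with very different ratios. Capitals mark the matched letters.
Chac1 (chr2:119351038-119351067, plus strand): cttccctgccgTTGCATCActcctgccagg
Trib3 (chr2:152344028-152344057, minus strand): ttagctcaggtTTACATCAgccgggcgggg
Slc7a11 (chr3:50443661-50443690, minus strand): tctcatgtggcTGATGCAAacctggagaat
Asns (chr6:7693214-7693243, minus strand): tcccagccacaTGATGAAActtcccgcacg
Iars (chr13:49682126-49682155, plus strand): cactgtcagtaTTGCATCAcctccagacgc
Yars (chr4:129189895-129189924, plus strand): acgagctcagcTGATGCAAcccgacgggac
Gars (chr6:55037960-55037989, plus strand): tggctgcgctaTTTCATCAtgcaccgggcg
Tars (chr15:11399655-11399684, minus strand): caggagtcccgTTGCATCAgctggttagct

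Slc7a11 held a further match in the same window. The log2 ratios of these genes ran from -5.10 for Chac1 to 0.87 for Tars. Among the cytosolic synthetases, the 5 with the letters had ratios from -0.53 to 0.87 with a median of 0.27. The 8 with a window but without the letters had ratios from 0.30 to 1.35 with a median of 0.60. Wars, Cars and Vars, with ratios of -1.004, -0.23 and -0.19, had no window and could not be searched. Nor could Nars (0.45), Rars (0.65), Hars (0.80) and Lars (1.18). In the printed sites of Chac1, Iars and Tars the 8 matched letters are identical, and the ratios were -5.10, -0.53 and 0.87. The E-box letters CACGTG, which Myc and related factors bind, were found for 4 of 13 cytosolic synthetases (Aars, Farsb, Iars and Tars), 1 of 13 mitochondrial synthetases (Ears2) and 0 of 13 ATF4 genes, and for 8.09% of genes with a window. A match gives letters in a window and not binding, and no match says nothing about the factor.

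Upstream of ATF4 stand the 4 eIF2 kinases. Eif2ak4 (Gcn2) had 256 and 132 reads, FPKM values of 4.62 and 3.90, and a log2 ratio of -0.25 (interval -0.56 to 0.06). Eif2ak3 (Perk) was past 1.5 times but rested on 29 and 28 reads, with a log2 ratio of 0.66 and an interval from -0.14 to 1.46. Eif2ak2 (Pkr) had -0.15 (interval -0.57 to 0.26), so the intervals of these 3 held 0. Only Eif2ak1 (Hri) had an interval above 0, at 0.40 (interval 0.03 to 0.76).

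The genes that undo eIF2 phosphorylation stood apart from the rest of this list. Ppp1r15a (Gadd34), the inducible phosphatase subunit and itself an ATF4 target, had 4043 and 955 reads, FPKM values of 115 and 44.4, and a log2 ratio of -1.37 (interval -1.48 to -1.27). Ppp1r15b (Crep), the constitutive subunit, had 887 and 155 reads, FPKM values of 22.6 and 6.47, and a log2 ratio of -1.81 (interval -2.06 to -1.56). The exchange factor eIF2B was higher in 4 of its 5 subunits, led by Eif2b3 at 0.99 (interval 0.68 to 1.31), while Eif2b2 was at -0.13. Over the 17 genes of this list the median was 0.24, with 4 at or above 1.5 times and 2, the phosphatase subunits, at or below 0.67 times. Of all genes, 23.7% and 24.8% passed these limits, so the count of high ratios was near the background.

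A further list of 22 described ATF4 targets had 17 genes past the filter, with a median of 0.20 but a wide spread. Of these, 6 were at or above 1.5 times (23.7% of all genes) and 6 at or below 0.67 times (24.8% of all genes). Atf3, a stress-induced repressor, had the lowest ratio, with 9596 and 102 reads and FPKM values of 589 and 10.2 (-5.85, interval -6.14 to -5.56). Gdf15, a stress cytokine, had 234 and 10 reads (-3.84, interval -4.92 to -2.93). On the other side were the mitochondrial one-carbon enzymes Shmt2 (FPKM 96.4 and 151, 0.65) and Mthfd2 (4.88 and 7.94, 0.70), which use serine, and Got1, an aspartate aminotransferase (5.99 and 11.9, 0.996). Ero1l, an oxidase of the endoplasmic reticulum, had the highest ratio, 1.83 (interval 1.56 to 2.10). The list did not split cleanly by function, since Aldh18a1, an enzyme of proline synthesis, was at -0.81 and the stress protein Nupr1 at 0.99, on 19 and 23 reads.

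Amino acid transporters gave no common direction. Of 14 genes, 11 passed the filter, with a median of 0.09 (-0.02 under TMM). Of the 11, 2 were at or above 1.5 times (23.7% of all genes) and 3 at or below 0.67 times (24.8% of all genes). Slc38a2, a glutamine and alanine transporter induced when amino acids are short, had 3045 and 466 reads, FPKM values of 104 and 25.9, and a log2 ratio of -1.998 (interval -2.14 to -1.86). Slc38a1 and Slc7a6 were at -1.21 and -1.20. Slc7a5, the light chain that joins Slc3a2 to carry leucine, had FPKM values of 14.2 and 20.7 and a log2 ratio of 0.54 (interval 0.33 to 0.76), and Slc36a1 had the highest ratio, 1.26.

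**Figure D4:**
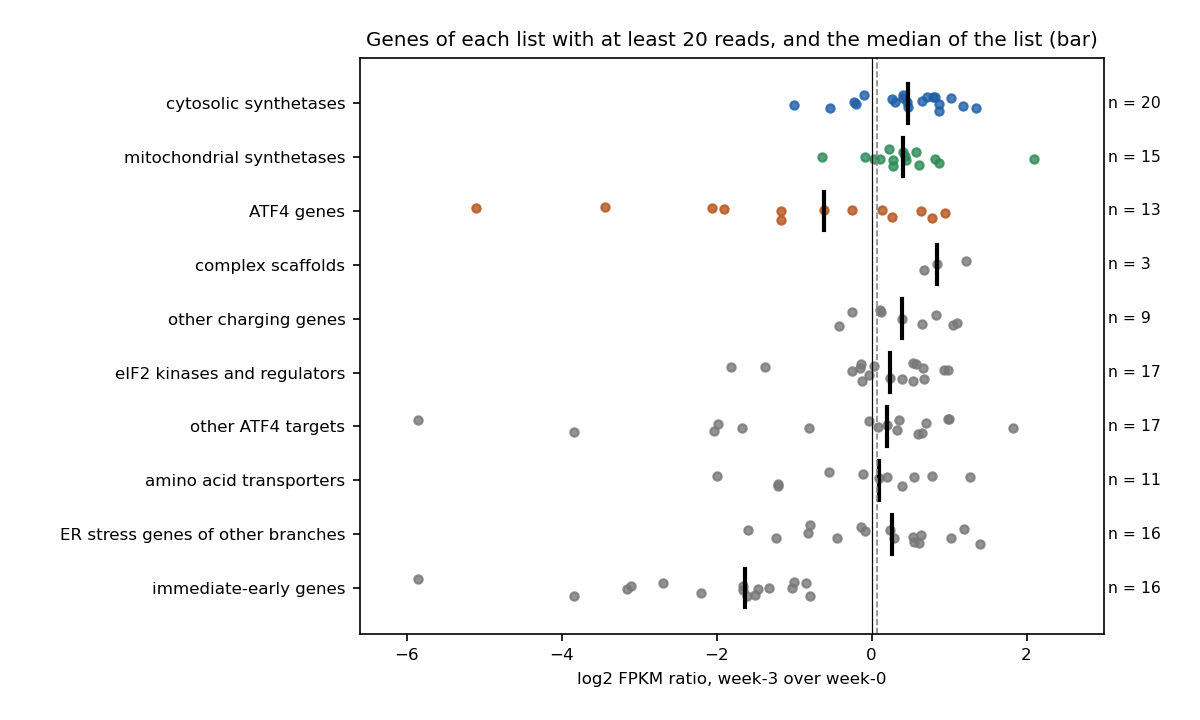
Log2 FPKM ratio (week-3 over week-0) of the genes with at least 20 reads in each list, with a vertical bar at the median of the list and n at the right. The solid line marks 0 and the dashed line the median of all genes at 0.07. The complex scaffolds lie at 0.68 and above, all 16 immediate-early genes lie below 0, and the ATF4 genes spread over both sides.

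Immediate-early genes and plasma cell markers were low together with Atf4, Ddit3 and Chac1. All 16 immediate-early genes were lower at week-3, with a median log2 ratio of -1.63, from Fos at -0.79 to Atf3 at -5.85, and Atf3 belongs to both lists. Of the plasma cell markers, 7 of the 8 past the filter were at or below 0.67 times (24.8% of all genes), while Xbp1 was at -0.09. The part of the immediate-early response, plasma cells or mast cells in the values of Atf4, Ddit3, Chac1, Trib3 and Sesn2 was not tested, and with 1 library per time point it cannot be told apart from BA expression.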

How the data were processed

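RNA of sorted LSKs was turned into cDNA by the authors with a SMARTer kit for low input and sequenced from both ends. Trimmed reads were aligned to GRCm38 (mm10) by TopHat2, version 2.0.9 per the submitters' processing notes, with 2 mismatches allowed. The counting tool, its strand setting and the annotation release are not given in the sources used here. Per gene, the authors deposited counts (whole reads, not normalized) and FPKM, which they scaled by exon length and library size. They named edgeR for their own comparison, which was not repeated because 1 library per group gives no spread.

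The tables were joined by gene identifier. Ratios of FPKM between libraries equal ratios of counts over totals. For intervals, the week-3 share of the reads of a gene was given an exact Clopper-Pearson interval (95%), from which that of the ratio follows. With 1 library per time point no test was run. The intervals and fold limits were tried on simulated counts with counting error only (Poisson). Those counts held no amplified copies and no spread between mice, so the trial says nothing about either. Exon overlaps and shared 50-base stretches come from GENCODE M21 (GRCm38). Scaling alternatives used edgeR 4.0.16 and DESeq2 1.42.0 in R 4.3.3, and other steps matplotlib 3.10.9, scipy 1.17.1, pandas 2.3.3 and numpy 2.4.6 under Python 3.11.15.

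Genes named in full are the 3 highest and 3 lowest of each class, Atf4, Ddit3, Asns, the scaffolds, the eIF2 kinases, Tars2 and the extremes of each further list. A few items that this rule names are not reported here. Other genes were named after their values were seen. The members and lists were chosen with earlier results of these data known.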

Additional observations from a re-analysis of the deposited data

How the results depend on the processing

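With 1 library per time point, no setting says how these values would vary between mice, and the depth leaves intervals wider than 1 log2 unit for Chac1, Trib3, Sesn2, Slc7a11, Atf5, Pars2, Wars2, Ears2, Nars2 and Mars2. The direction of the 3 class medians held under TMM and median-of-ratios scaling, a total without the 13 most abundant genes, other read minimums and pseudocounts. The ATF4 median ranged from -0.89 without genes sharing sequence to -0.33 with a pseudocount of 1, the cytosolic median from 0.35 to 0.48 and the mitochondrial median from 0.28 to 0.44. The count of cytosolic synthetases at or below 0.67 times was 2 with TMM and 2 with median-of-ratios scaling. With limits of 2 and 0.5, the counts of high ratios were 3 cytosolic, 1 mitochondrial and 0 ATF4 genes, and 0 mitochondrial synthetases were low. High mitochondrial synthetases numbered 2 with at least 100 reads and 2 with a pseudocount of 1. Without members of which 10% or more of the sequence overlaps or repeats in another gene, an alternative chosen after seeing the data (8 genes), 1 ATF4 gene was high and 0 mitochondrial synthetases were low. Fewer genes tested accounts for the changes under that alternative and under 100 reads. No paired analysis was possible because each group has 1 library.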

Other observations

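Genes of the unfolded protein response that had been listed under branches other than ATF4 did not move as a block. Whether each of them is independent of ATF4 was not examined. Of 16 examined, 5 were at or above 1.5 times at week-3 (23.7% of all genes) and 4 at or below 0.67 times (24.8% of all genes). Their median log2 ratio was 0.26. Sdf2l1, a chaperone cofactor, had 1041 and 1687 reads (week-0 and week-3) and a log2 ratio of 1.41 (interval 1.29 to 1.52), and Calr, Pdia6 and Hsp90b1 were at 1.19, 1.02 and 0.61. Dnajb9, a target of the Ire1 branch, was at -1.595 (interval -1.84 to -1.35), Herpud1 at -1.23 and the chaperone Hspa5 (BiP) at -0.44, with FPKM values of 183 and 134.

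Of 12 proliferation genes, 10 were above 0 on the log2 scale, as were 6505 of all 12192 genes. Their median was 0.23, between Ccna2 at -0.69 and Rrm2, a ribonucleotide reductase subunit, at 2.12. Mki67 was at -0.06 (interval -0.20 to 0.08). The editing-domain gene Aarsd1 had 0 reads before withdrawal, 17 after it, and did not reach 20 reads.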
